A study of Sus scrofa with 31 samples.

Results

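CSF1R, CSF1 and CSF3R were followed across the 5 groups of a pig RNA sequencing series, as the CSF1 receptor, its ligand and the receptor of a related colony-stimulating factor. The genes were chosen by name, with earlier results of these data known. They were matched to the count table by identifier, so that the 3 genes stood among 31907 in all. CSF1R (ENSSSCG00000014441) lies on the minus strand of chromosome 2 at 151102138 to 151130311 of Sscrofa11.1, CSF1 (ENSSSCG00000037449) on the minus strand of chromosome 4 at 110178466 to 110198232, and CSF3R (ENSSSCG00000025795) on the minus strand of chromosome 6 at 92550159 to 92565798, as RefSeq annotates them. The 31 samples came from 15 pigs by their tag numbers, with 8 each of microglia sorted from cerebellum, frontal cortex and hippocampus, 3 of alveolar macrophages and 4 of hippocampal tissue taken whole. All animals were male suckling piglets a few weeks old from Large White x Landrace sows and Duroc semen, 1 per litter, which had been sedated and anaesthetised for brain imaging. Litters were housed in standard or freer pens, and the labels do not give the pen of a pig. Microglia were gated as CD11b high and CD45 low after Dounce homogenization and a Percoll step, and macrophages as F4/80 positive and CD163 low cells of a lung lavage, which covers part of the lung macrophages. RNA of sorted cells was purified on magnetic beads, whereas tissue RNA was purified with a column kit from pieces kept in RNAlater, so that kit and sample type cannot be told apart in any comparison with tissue.

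CSF1R is the receptor tyrosine kinase of macrophages and microglia, which depend on it to survive and divide. It has a pair of ligands, CSF1 and IL34, and in rodents neurons make much of the IL34 of the forebrain while CSF1 is the more prominent ligand in the cerebellum and white matter. CSF3R binds CSF3 (G-CSF) and is best known from neutrophils and their precursors, and signals through JAK2 and STAT3.

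Total counts ran from 18438494 to 43477403 per sample (median 29243994). The 8 microglia markers summed to 2506 to 4669 TMM-normalized CPM (reads of a gene relative to library size) in the microglia, to 114 to 153 in the alveolar macrophages and to 179 to 277 in the tissue. CD163, MRC1, ADGRE1 and THBS1 marked the alveolar macrophages, with CD163 at 303 to 587 CPM there and at most 22.6 in microglia, whereas the alveolar macrophage markers MARCO and FABP4 had no count in the 3 macrophage samples, where 3 counts amount to a mean of 0.0768 CPM. These 3 samples also held granulocyte markers, which summed over 8 genes to 301 to 685 CPM against 1.41 to 9.62 in microglia, and lymphoid markers, which summed over 7 genes to 639 to 1139 CPM against 95.7 to 217. MPO was at 0 and MMP8 at or below 0.131 CPM in the macrophage samples, and S100A12, at 165 to 462 CPM, made up most of the granulocyte sum. ELANE averaged 1.66 CPM in macrophages and 2.37 in microglia, and LTF reached at most 0.94 and 0.888 CPM. The 10 markers of other brain cells summed to 163 to 1889 CPM in microglia, to 148 to 302 in macrophages and to 16718 to 26997 in tissue.

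The stretches before the annotated gene starts are shown on the gene's own strand from 5′ to 3′, from the RefSeq annotation of Sscrofa11.1. Whether these stretches regulate the genes was not tested. They are 250 bases long and cover chr2:151130312-151130561 for CSF1R, chr4:110198233-110198482 for CSF1 and chr6:92565799-92566048 for CSF3R.
CSF1R: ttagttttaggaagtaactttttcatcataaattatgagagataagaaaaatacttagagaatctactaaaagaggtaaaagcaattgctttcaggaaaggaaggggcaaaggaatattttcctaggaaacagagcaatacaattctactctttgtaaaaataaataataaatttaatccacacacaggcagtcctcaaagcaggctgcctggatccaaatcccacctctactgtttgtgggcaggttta
CSF1: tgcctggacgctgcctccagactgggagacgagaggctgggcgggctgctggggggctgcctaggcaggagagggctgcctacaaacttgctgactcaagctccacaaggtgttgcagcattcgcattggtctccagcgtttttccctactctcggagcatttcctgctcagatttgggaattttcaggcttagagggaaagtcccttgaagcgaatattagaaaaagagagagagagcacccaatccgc
CSF3R: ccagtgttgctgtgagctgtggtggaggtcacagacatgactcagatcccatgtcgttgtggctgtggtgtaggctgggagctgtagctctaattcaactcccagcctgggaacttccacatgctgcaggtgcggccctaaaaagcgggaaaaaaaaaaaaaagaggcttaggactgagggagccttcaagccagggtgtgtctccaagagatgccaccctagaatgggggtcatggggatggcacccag
GC content was 34.8% before CSF1R, 55.2% before CSF1 and 54.4% before CSF3R. The letters GAGGAA, the core of a site of the myeloid factor PU.1, were searched on both strands, would have been printed in capitals, and were in none of the 3 windows, whereas 22.0% of 20667 such windows held them. RefSeq gives 3 transcript starts for CSF1R, 5 for CSF1 and 2 for CSF3R, and the windows precede the outermost one, so that a start further inside the gene is not covered. The deposited counts are per gene and do not tell which start was used.

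CSF1R was far more highly expressed in microglia than in either comparator, and its level did not separate the brain regions. In CPM it ran from 1311 to 4450 in cerebellar microglia (median 2360), from 1829 to 3150 in frontal cortex microglia (median 2839) and from 1961 to 2903 in hippocampal microglia (median 2556). Alveolar macrophages held 113, 265 and 243 CPM, and hippocampal tissue 79.1, 68.7, 58.7 and 70.7 CPM. The microglia samples did not overlap those of macrophages, nor the macrophage samples those of tissue. The share of all genes whose samples separate in this way is not given here, for CSF1R, CSF1 or CSF3R. Differences were common, with 57.6% of the genes tested called between macrophages and tissue by edgeR. By mean CPM, CSF1R ranked 30 among all genes in the 24 microglia samples, 671 in macrophages and 2971 in tissue.

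CSF1, the ligand, was highest in alveolar macrophages, at 107, 127 and 83.4 CPM. Cerebellar microglia ranged from 16.3 to 76.1 CPM (median 29.7), frontal cortex microglia from 2.85 to 21.5 (median 7.57) and hippocampal microglia from 5.03 to 16.6 (median 6.76), beside 21.3, 30.1, 18.7 and 20.0 CPM in tissue. The macrophage samples lay above all others, and cerebellar microglia overlapped the tissue and only the highest frontal cortex and hippocampal samples.

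CSF3R was also highest in alveolar macrophages, at 102, 255 and 190 CPM. It ranged from 7.41 to 36.6 CPM in cerebellar microglia (median 21.4), from 1.16 to 30.4 in frontal cortex microglia (median 17.3) and from 14.9 to 38.2 in hippocampal microglia (median 27.4), and stood at 0.817, 0.209, 0.63 and 0.83 CPM in tissue, where 7 to 27 reads were counted. The 3 levels of macrophages, microglia and tissue did not overlap. The lowest microglia samples were the frontal cortex samples of pigs 12902 and 12891, at 1.16 and 1.72 CPM, and the cerebellar samples of the same pigs were the lowest of their region, at 7.41 and 9.43 CPM.

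**Figure D1:**
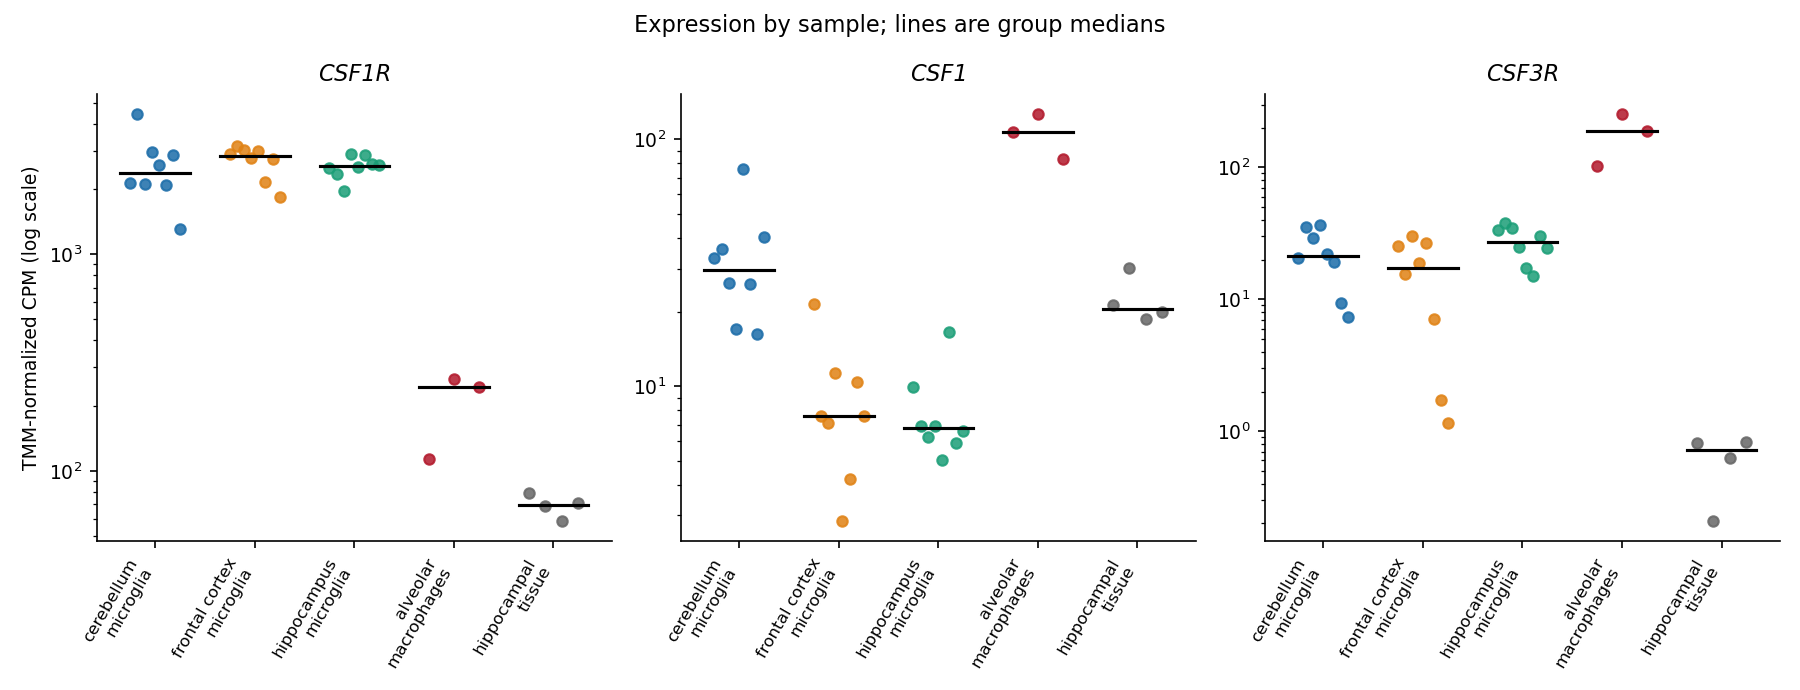
TMM-normalized CPM on a log axis (each panel with its own range) for CSF1R, CSF1 and CSF3R in each of the 31 samples, by group, with points for samples and lines for group medians. The 24 microglia samples sit between 1311 and 4450 CPM for CSF1R, above all macrophage and tissue samples, while the 3 macrophage samples are the highest for CSF1 and CSF3R.

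The order of the groups was tested between neighbours by two-sided exact permutation tests of mean log2 CPM, 12 tests in all, which take the samples as unpaired although some pigs gave several of them. For CSF1R, the 3 microglia regions were not separated (exact p = 0.535 and 0.782, adjusted 0.642 and 0.853). Cerebellar microglia, the lowest of the 3, exceeded macrophages by 3.65 log2 units (exact p = 0.0121, the smallest these group sizes allow, adjusted 0.0363). Macrophages exceeded tissue by 1.49 log2 units, where the exact permutation p was 0.0571, the smallest that 3 against 4 samples allow (adjusted 0.114). For CSF1 the order was macrophages, cerebellar microglia, tissue, frontal cortex microglia and hippocampal microglia. The step from macrophages to cerebellar microglia was 1.79 log2 units (exact p = 0.0121, adjusted 0.0363) and that from tissue to frontal cortex microglia 1.51 (exact p = 0.0162, adjusted 0.0389), whereas cerebellar microglia and tissue (difference 0.45, exact p = 0.251) and frontal cortex and hippocampal microglia (difference 0.05, exact p = 0.903) were not separated. For CSF3R, the step from macrophages to hippocampal microglia was 2.70 (exact p = 0.0121, adjusted 0.0363) and that from frontal cortex microglia to tissue 3.99 (exact p = 0.00404, the smallest possible, adjusted 0.0363), and the regions were not separated (exact p = 0.273 and 0.198).

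Per kilobase of annotated exon, the scale on which genes can be compared, CSF1R averaged 645 ± 148 CPM per kb in microglia (SD, n = 24 samples of 14 pigs), 51.4 ± 20.3 in macrophages (n = 3) and 17.2 ± 2.08 in tissue (n = 4). CSF1 averaged 3.57 ± 3.48 CPM per kb in microglia, 22.3 ± 4.63 in macrophages and 4.73 ± 1.08 in tissue, and CSF3R 6.38 ± 3.20, 53.1 ± 22.4 and 0.181 ± 0.0844. The receptor exceeded its ligand in every sample. The ratio of CSF1R to CSF1 per kb was 1.25 to 3.44 in macrophages and 2.70 to 4.38 in tissue, 38.5 to 209 in cerebellar microglia (median 95.0), 159 to 1243 in frontal cortex microglia (median 402) and 205 to 596 in hippocampal microglia (median 429).

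**Figure D2:**
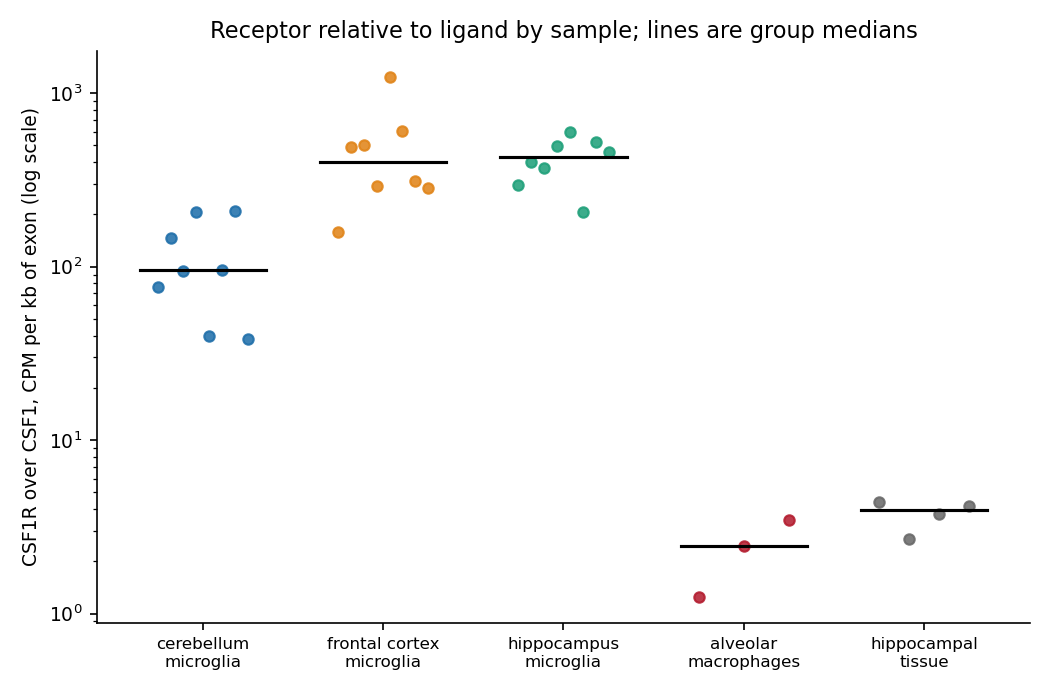
Ratio of CSF1R to CSF1 in CPM per kb of exon, on a log axis, for each sample by group, with lines for group medians. Macrophage and tissue samples lie between 1.25 and 4.38, and the lowest microglia sample, from the cerebellum, at 38.5.

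The first comparison set the 24 microglia samples, of 14 pigs, against the 3 alveolar macrophage samples, to find what marks microglia among macrophages. CSF1R was 12.6-fold higher in microglia (3.65 on the log2 scale, SE 0.30, adjusted p = 1.24e-11 by the quasi-likelihood test of edgeR, with Benjamini-Hochberg adjustment over all 11633 genes tested). CSF1 was 7.86-fold lower (log2 fold change -2.97, SE 0.32, adjusted p = 2.97e-09 by edgeR), and CSF3R 8.53-fold lower (log2 fold change -3.09, SE 0.44, adjusted p = 8.04e-07 by edgeR). All 3 genes passed the thresholds of an adjusted p under 0.01 and a fold over 3, which 22.3% of the genes tested passed in either direction. Pigs 12821 and 12829 gave both cell types. In pig 12821 CSF1R was 22.8-fold and 22.4-fold higher in cerebellar and hippocampal microglia than in its macrophages, and in pig 12829 10.9-fold higher in hippocampal microglia. CSF1 of pig 12821 was 21.3-fold higher in macrophages than in hippocampal microglia but 1.41-fold higher than in cerebellar microglia, which was the microglia sample with the most CSF1. Among the macrophage samples CSF3R was 102, 255 and 190 CPM where the granulocyte markers summed to 301, 314 and 685 CPM, and lymphoid markers to 921, 1139 and 639 CPM. The part of granulocytes or lymphoid cells in the macrophage levels of CSF3R and CSF1 was not tested.

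The second comparison set hippocampal microglia against whole hippocampal tissue, to find what marks microglia within the brain. CSF1R was 36.7-fold higher in microglia (5.20 on the log2 scale, SE 0.29, adjusted p = 2.28e-15 by edgeR). CSF3R was 43.7-fold higher (log2 fold change 5.45, SE 0.78, adjusted p = 5.86e-07 by edgeR). With limma-voom the value for CSF3R was 5.51 with an adjusted p of 0.026, which is above 0.01 and loses the call, and with the pig as a random replicate block in limma 5.02 with an adjusted p of 0.0271. CSF1 was 2.81-fold lower in microglia (-1.49 on the log2 scale, 95% interval -2.28 to -0.70, adjusted p = 0.00107 by edgeR), a fold under the threshold of 4. So 2 of the 3 genes passed both thresholds, against 33.8% of the genes tested. CSF3R was kept for testing through hippocampal microglia and macrophages and not through tissue, so that a level above tissue was all but fixed. In the 4 pigs that gave both samples, tissue held 2.24% to 3.12% of the CSF1R level of microglia and 1.40% to 4.69% of the CSF3R level, but 181% to 424% of the CSF1 level. For 8 microglia markers the median of the same share ran from 2.02% (CX3CR1) to 21.2% (SALL1). In bulk RNA fewer cells of a type and less RNA per cell cannot be told apart.

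The third comparison asked whether microglia of the 3 regions differ. CSF1 was the 1 gene of the 3 that passed the F test over the regions (adjusted p = 0.000133 by edgeR, with 2.03% of genes passing), and CSF1R (adjusted p = 0.936) and CSF3R (adjusted p = 0.483) did not. Cerebellar microglia held 3.74-fold more CSF1 than frontal cortex microglia (log2 fold change 1.90, SE 0.34, adjusted p = 0.000922 by edgeR), where 1.87% of genes passed, and 4.22-fold more than hippocampal microglia (log2 fold change 2.08, SE 0.34, adjusted p = 0.0012 by edgeR), where 0.602% passed. Frontal cortex and hippocampal microglia differed by 0.17 log2 units in CSF1 (95% interval -0.50 to 0.85, adjusted p = 0.835 by edgeR), and none of the 3 genes was among the 0.318% that passed there. With the pig as a fixed replicate block in edgeR the sizes for CSF1 were 1.86 and 1.93, with adjusted p of 0.0137 and 0.0825 and an F test at 0.0102, so that all 3 calls were lost, while with the pig as a random effect in limma the calls held. The fit on the cerebellar and frontal cortex samples alone gave 1.88 with an adjusted p of 0.0105.

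Within pigs, CSF1 was higher in cerebellar than in frontal cortex microglia in 6 of 6 pigs, by 1.69 ± 0.93 log2 units (SD), or 1.56-fold to 6.15-fold (exact sign-flip permutation p = 0.0312, the smallest 6 pairs allow, adjusted 0.187 over 12 such tests). It was higher in cerebellar than in hippocampal microglia in 4 of 4 pigs, by 2.18 ± 1.21 log2 units (exact permutation p = 0.125, the smallest possible). The widest gap was that of pig 12821, with 76.1 CPM in cerebellar and 5.03 CPM in hippocampal microglia. CSF3R was likewise higher in cerebellar than in frontal cortex microglia in 6 of 6 pigs, by 1.34 ± 0.98 log2 units (exact permutation p = 0.0312, adjusted 0.187), from 1.37-fold to 6.41-fold. Across all samples of these regions CSF3R differed by 0.51 log2 units (95% interval -0.45 to 1.46, adjusted p = 0.606 by edgeR), and with the fixed replicate block by 1.33 (adjusted p = 0.0526 by edgeR), so no fit called it. CSF1R was higher in the cerebellum in 2 of 6 pigs and in 2 of 4, with mean differences of -0.04 ± 0.39 and -0.05 ± 0.30 log2 units. Its 95% intervals in the fit over all samples were -0.44 to 0.30 between cerebellar and frontal cortex microglia, -0.35 to 0.38 between cerebellar and hippocampal and -0.28 to 0.45 between frontal cortex and hippocampal microglia.

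**Figure D3:**
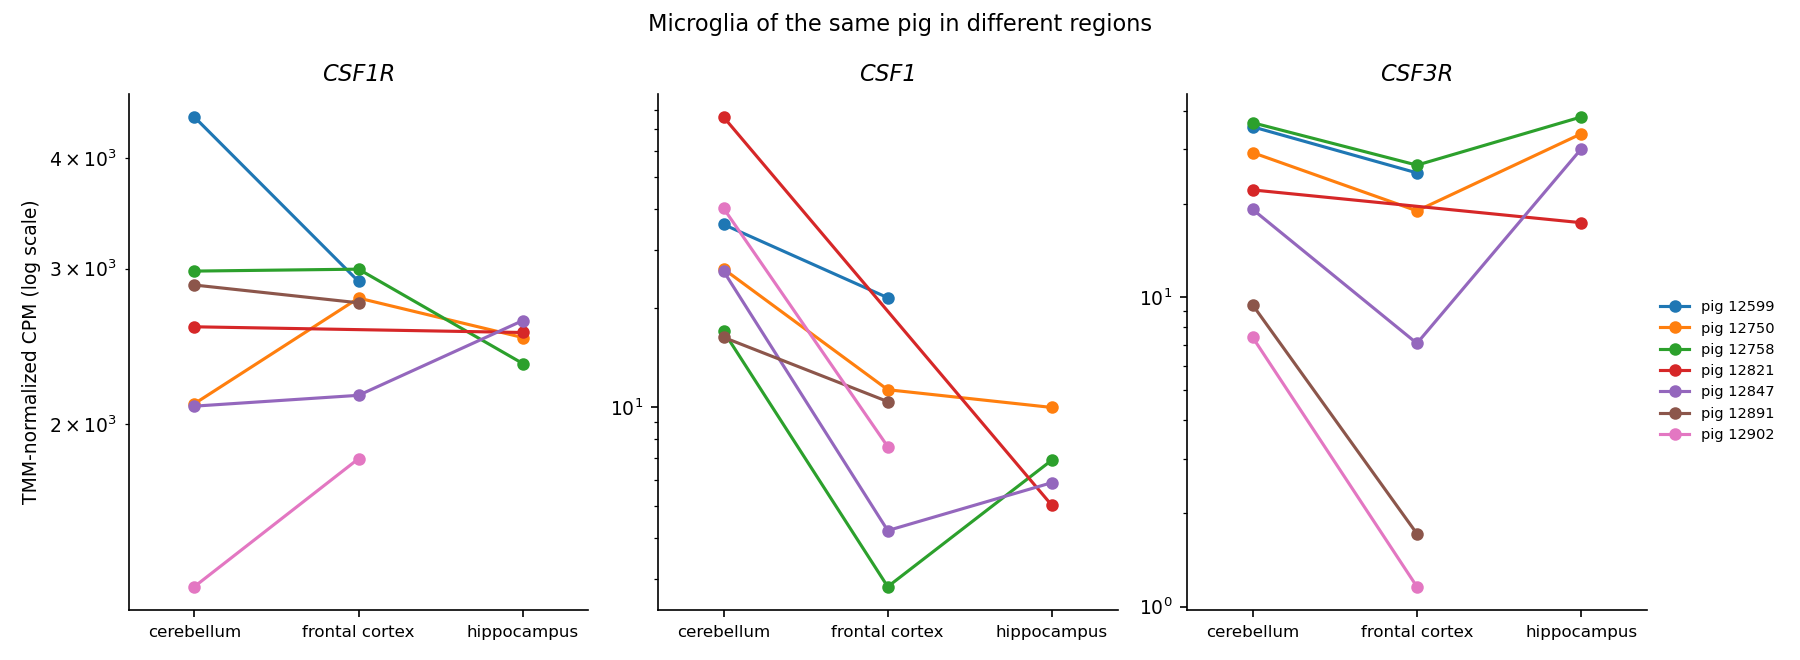
TMM-normalized CPM on a log axis (each panel with its own range) for the 7 pigs with microglia of more than 1 region, with 1 line per pig. CSF1 falls from the cerebellum to the other regions in every pig, CSF3R is lower in frontal cortex than in cerebellum in 6 of 6 pigs, and CSF1R has no common direction.

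Other RNA differed between the microglia samples too. The 10 brain cell markers summed to 163 to 854 CPM in cerebellar, 193 to 1889 in frontal cortex and 172 to 495 in hippocampal microglia. Of the 24 samples, 5 were above 500 CPM, 3 of them cerebellar and 2 frontal cortex, and without these CSF1 was 2.26 log2 units higher in cerebellar than in frontal cortex microglia (adjusted p = 0.00123 by edgeR) and 2.01 higher than in hippocampal microglia (adjusted p = 0.00436 by edgeR). A stricter limit of 200 CPM left only 1 cerebellar, 1 frontal cortex and 2 hippocampal samples, with differences of 1.98 and 1.11, and so says little about the calls. The summed level of 7 early response and stress genes was 364 to 892 CPM in cerebellar samples against 136 to 499 in frontal cortex and 227 to 424 in hippocampus. Of these 7 genes, JUN (log2 fold change 1.38, adjusted p = 0.00144 by edgeR) and HSPB1 (0.89, adjusted p = 0.000385 by edgeR) rose against frontal cortex microglia, where 0.894% of all genes rose. NR4A1 had the opposite direction there and did not pass (-1.33, adjusted p = 0.219 by edgeR). None of the 7 passed against hippocampal microglia, where 0.602% of all genes did. Over the 24 samples, log2 CSF1 had a Pearson r of 0.25 with the brain marker sum and of 0.59 with the early response and stress sum (Spearman 0.23 and 0.60), where region, pig and library are shared by the points. The part of early response and stress genes in the CSF1 difference was not tested.

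**Figure D4:**
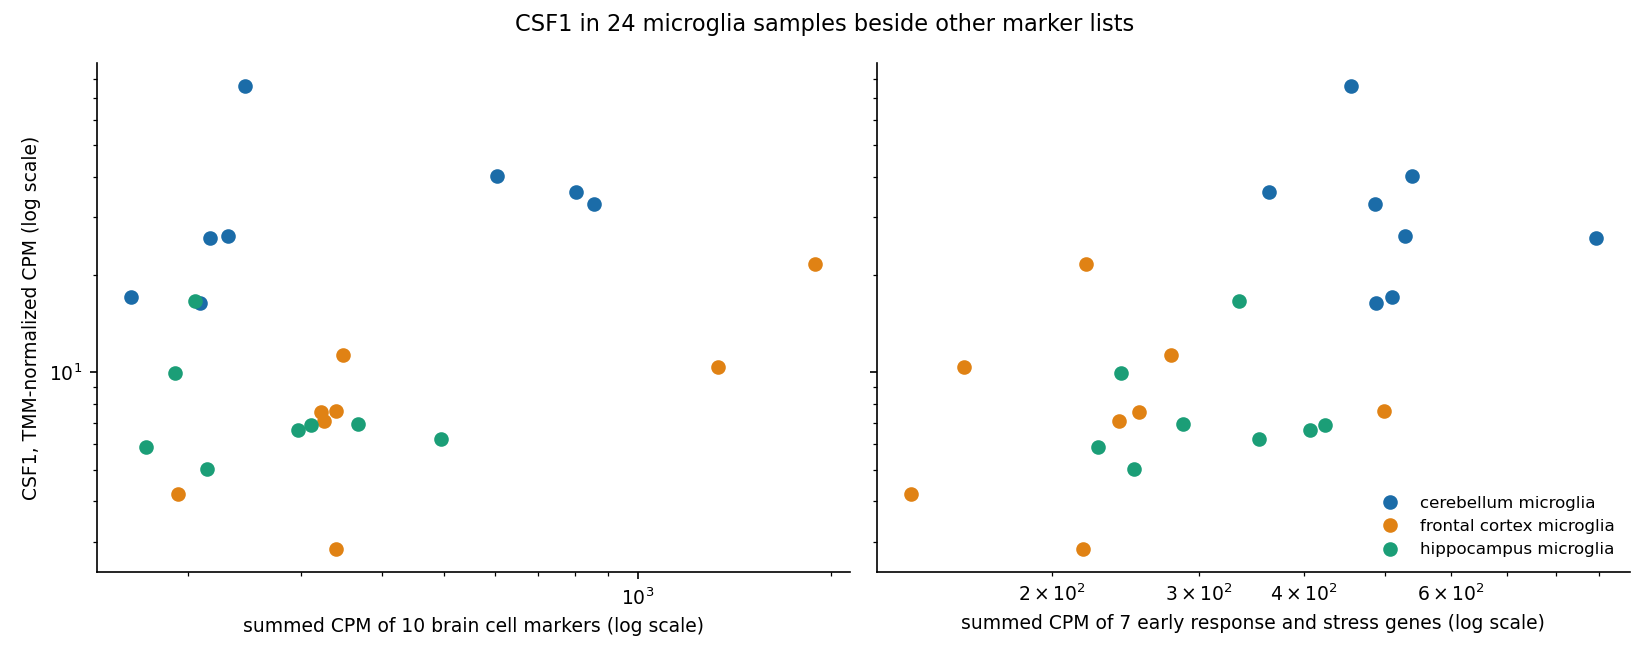
CSF1 in TMM-normalized CPM against the summed CPM of 10 brain cell markers (left) and of 7 early response and stress genes (right), log axes, for 24 microglia samples coloured by region. Cerebellar samples lie at 16.3 to 76.1 CPM of CSF1 over the whole range of brain markers from 163 to 854 CPM, and to the right of most others on the right panel.

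The last comparison set alveolar macrophages against hippocampal tissue, which completes the order of the groups and shares its samples with the first and second comparisons. CSF1R was 2.99-fold higher in macrophages (log2 fold change 1.58, SE 0.27, adjusted p = 1.23e-05 by edgeR), CSF1 4.71-fold higher (2.23, SE 0.50, adjusted p = 0.000335 by edgeR) and CSF3R 292-fold higher (8.19, SE 0.92, adjusted p = 1.01e-08 by edgeR). All 3 passed an adjusted p of 0.01, as did 57.6% of the genes tested. For CSF3R, kept for testing through hippocampal microglia and macrophages alone, a level above tissue was all but fixed.

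Of the 6 ligands listed for these receptor families, 3 were expressed highly enough to be tested. IL34, the other ligand of CSF1R, was highest in tissue, at 54.8 ± 3.70 CPM (SD, n = 4), followed by frontal cortex (17.0 ± 14.3, n = 8), cerebellar (11.9 ± 8.13, n = 8) and hippocampal microglia (7.10 ± 2.64, n = 8) and by macrophages (1.14 ± 0.338, n = 3). It was higher in microglia than in macrophages (log2 fold change 3.30, SE 0.67, adjusted p = 0.000113 by edgeR), whereas CSF1 was higher in macrophages. Against tissue, IL34 was lower in hippocampal microglia (-2.95, SE 0.49). IL34 was kept for testing through the tissue alone, so that a level below tissue was all but fixed. In microglia it varied widely, from 2.15 to 39.7 CPM. Of the 10 brain cell markers, 5 were called higher in microglia than in macrophages and 1 lower, with a median log2 fold change of 4.09. Their summed level had a median of 316 CPM in microglia and 296 CPM in macrophages. The part of RNA from other brain cells in the IL34 of microglia was not tested. FLT3LG, the ligand of FLT3, was lower in microglia than in macrophages (log2 fold change -1.86, SE 0.13). CSF3, the ligand of CSF3R, reached at most 4.92 CPM in any microglia sample and 2.82 in any macrophage sample, and KITLG, the ligand of KIT, 9.06 CPM in tissue. CSF2, or GM-CSF, on which alveolar macrophages depend, was at 0.568 to 0.941 CPM in macrophages and had no count in microglia and tissue samples, where 3 counts amount to a mean of 0.114 and 0.0926 CPM. In microglia against macrophages 1 of the 3 tested ligands rose and 2 fell, with a median log2 fold change of -1.86 against 0.06 over all genes tested, of which 12.2% rose and 10.1% fell.

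Of 11 receptors with an identifier, 8 were tested. In microglia against macrophages 2 rose, CSF1R and PDGFRB, and 2 fell, CSF3R and KIT, with a median of 0.54, so that 50.0% of the receptors passed against 22.3% of all genes. KIT was kept for testing through macrophages and tissue, so that a rise in microglia was all but closed to it, and PDGFRB through tissue alone. The share is therefore no result about the receptors. PDGFRB, a receptor of pericytes encoded beside CSF1R at 151155753 to 151192818 of chromosome 2, had no count in macrophages and 0 to 10.8 CPM in microglia, so that its mean was at least 16.1-fold higher against a floor of 3 counts per library, and the median was the same with it at that bound. KIT, the receptor of stem cell factor, was at 24.6 to 96.1 CPM in macrophages and 71.5 to 130 CPM in tissue but at most 11.9 in microglia. CSF2RA and CSF2RB, the GM-CSF receptor chains, differed less between the cell types (log2 fold change -0.77, SE 0.27, and -0.79, SE 0.27), under the fold threshold. Against tissue, hippocampal microglia were higher in 4 receptors, CSF1R, CSF3R, CSF2RA (5.47, SE 0.39) and CSF2RB (5.00, SE 0.38), and lower in the other 4, PTPRZ1 (-7.54, SE 1.22), KIT (-8.53, SE 1.33), PDGFRA (-7.95, SE 1.35) and PDGFRB (-5.60, SE 1.37). PTPRZ1 is a glial receptor phosphatase that also binds IL34, and PDGFRA marks oligodendrocyte precursors. PTPRZ1, PDGFRA and PDGFRB were kept for testing through the tissue alone and KIT through tissue and macrophages. A level in microglia below that of tissue was thus all but fixed for these 4. CSF3R, CSF2RA and CSF2RB were kept through sorted cells and not through tissue, so that a level above tissue was all but fixed for them. Neither count is a result about the receptors. No receptor passed the F test over the regions, and KIT came nearest (adjusted p = 0.0596 by edgeR). SDC1, FLT3 and IL5RA were too low to be tested, with SDC1 at 8.28 to 36.7 CPM and IL5RA at 2.91 to 10.5 CPM in macrophages and FLT3 at 10.5 to 21.0 CPM in tissue.

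**Figure D5:**
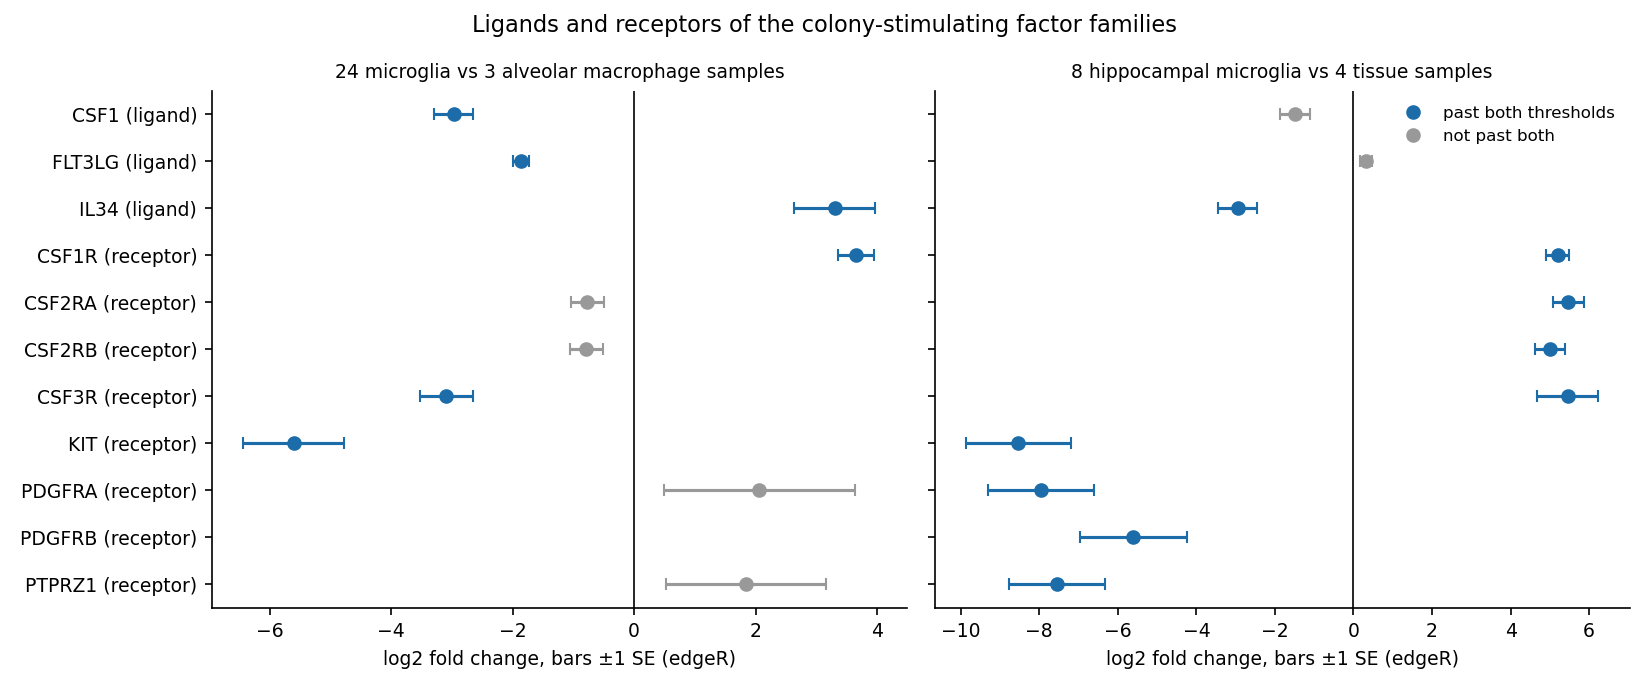
Log2 fold changes of the tested ligands and receptors in microglia against alveolar macrophages (left) and in hippocampal microglia against tissue (right), with bars of 1 SE and blue points for genes past both thresholds. CSF1R lies to the right in both panels, CSF3R to the left of 0 against macrophages and to the right against tissue, and PDGFRB is not drawn on the left because macrophages had no count.

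Downstream of the receptors, 49 genes of signal transduction, negative regulation and transcription were tested. In microglia against macrophages 5 rose and 9 fell (median log2 fold change -0.14 against 0.06 over all genes), and the 28.6% that passed lay near the 22.3% of all genes. The leading genes that rose were CEBPA (2.94, SE 0.22), a myeloid transcription factor, ETS2 (2.30, SE 0.20), and BLNK (2.30, SE 0.19), an adaptor of SYK signalling. The 9 that fell were 18.4% of the 49, where 10.1% of all genes fell. Of 12 negative regulators tested 5 fell, led by SOCS1 (-5.78, SE 0.54), PSTPIP1 (-5.04, SE 0.44) and SOCS3 (-4.85, SE 0.60). SOCS1 and SOCS3 are inhibitors of JAK and STAT signalling. SOCS1, PSTPIP1 and SOCS3 were kept for testing through the macrophages alone, so that only a fall was open to them. The count of 5 is therefore no result about negative regulators. The macrophage samples are those with granulocyte markers at 301 to 685 CPM and lymphoid markers at 639 to 1139 CPM. The part of such cells in these levels was not tested. Against tissue, hippocampal microglia were higher in 28 of the 49 and lower in 3 (median 3.10 against -0.08), or 57.1% and 6.12% where 11.7% and 22.1% of all genes passed, led by TYROBP (5.36, SE 0.35), the adaptor of TREM2, IRF5 (5.10, SE 0.17) and VAV1 (5.04, SE 0.17). Many of the 28, TYROBP, IRF5 and VAV1 among them, were kept for testing through sorted cells and not through tissue. A level above tissue was all but fixed for such genes. The 3 lower genes were YES1, which was at least 203-fold lower with no count in hippocampal microglia, FYN (-5.40, SE 0.78), both SRC family kinases, and PTPN11 (-2.04, SE 0.17), a phosphatase. YES1 was kept through tissue alone and FYN through tissue and macrophages, so that a level below tissue was all but fixed for both. In macrophages against tissue 40 of the 49 were higher and 2 lower, 85.7% in all where 57.6% of all genes passed, with SRC (-1.51, SE 0.26) and PTPN11 (-1.03, SE 0.22) the lower genes, and the highest were CISH (6.76, SE 0.36), PSTPIP1 (6.30, SE 0.88) and SOCS1 (5.80, SE 1.07). Many of the 40, CISH, PSTPIP1 and SOCS1 among them, were likewise kept through sorted cells and not through tissue. The shares against tissue are therefore no result about the 49 genes. SPI1, which encodes PU.1, did not pass the test between microglia and macrophages (0.22, SE 0.15, adjusted p = 0.21 by edgeR).

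Between cerebellar and frontal cortex microglia 4 of the 49 passed, or 8.16% against 1.87% of all genes, and between cerebellar and hippocampal microglia 2, or 4.08% against 0.602%. The lists were chosen with earlier results of these data known and few genes passed. Neither share is therefore a result about the 49 genes. EGR2, an early response transcription factor of myeloid cells, was higher in cerebellar microglia than in frontal cortex (1.61, SE 0.33, adjusted p = 0.00429 by edgeR) and hippocampal microglia (1.90, SE 0.34, adjusted p = 0.00216 by edgeR). MITF, a transcription factor of osteoclasts and pigment cells, was higher against both as well (1.39, SE 0.20, and 1.19, SE 0.20). With the pig as a fixed replicate block in edgeR both calls against hippocampal microglia were lost, with EGR2 at an adjusted p of 0.0946 and MITF at 0.0521, in a fit that called 0 genes there, 1327 having an unadjusted p under 0.05, while limma with the pig as a random effect called 66. ETS2 (-0.90, SE 0.14) and PLCG2 (-0.44, SE 0.10), a phospholipase of microglial signalling, were lower in cerebellar than in frontal cortex microglia, and none of the 49 passed between frontal cortex and hippocampus. Under the same block the calls of MITF, ETS2, JUN and HSPB1 against frontal cortex microglia held, and those of EGR2 (adjusted p = 0.01, at the threshold and not under it) and PLCG2 (adjusted p = 0.0785 by edgeR) were lost.

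Genes with the most similar pattern were sought by Pearson's r of log2 CPM over 10208 tested genes with a symbol, as a description in which samples share group, pig and library. Over all 31 samples TLR9, ABCC3, ADA2 and IRAK2 were among the 5 nearest to CSF1R (r from 0.99 to 0.987), those nearest to CSF1 were CTSB, SH3KBP1, SLC2A3, TRPV2 and STEAP4 (0.862 to 0.822), and those nearest to CSF3R were C3H16orf54, IL27RA, UNC13D, NUP210 and COTL1 (0.949 to 0.908). Over the 24 microglia samples the 5 nearest to CSF1R were ADGRG1, SPNS2, SIPA1, TFE3 and ICOSLG (0.884 to 0.855), those nearest to CSF1 were ASTN2, FMNL2, TBC1D24, CTSB and IGF2R (0.871 to 0.813), and those nearest to CSF3R were TXLNA, C3H16orf54, KLC4, RRP8 and LIMD2 (0.844 to 0.784). By Spearman's rho 0 to 2 of each 5 were again among the first 5. Among themselves, the 3 genes were weakly related over the 24 microglia samples, with r of -0.09 between CSF1R and CSF1, 0.35 between CSF1R and CSF3R and 0.05 between CSF1 and CSF3R.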

How the data were processed

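The authors aligned the reads to Sscrofa11.1 with HISAT2 and assigned them with StringTie (named in the submitters' processing notes). The deposited values are raw counts per gene, 1 column per sample, and no column was without a sample. Whether the counting used strand is not given in the sources used here. Of 31907 identifiers, 15029 were given a symbol by the reference table and 510 by the gene name columns of the supplementary tables, from which the identifier of CSF3R was taken.

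A gene was kept where every sample of some group exceeded 10 CPM, which 11633 genes met. CSF1R passed through all 5 groups, CSF1 through cerebellar microglia, macrophages and tissue, and CSF3R through hippocampal microglia and macrophages. TMM factors and robust quasi-likelihood fits came from edgeR 4.0.16 (R 4.3.3), in 1 model of the 5 groups. Thresholds were an adjusted p of 0.01, with a fold over 3 against macrophages and over 4 against tissue. log2 CPM used a prior count of 2, and levels per kb used the union of RefSeq exons. Permutation tests were two-sided, in scipy 1.17.1 and Python 3.11.15. No samples of a group were copies (lowest chi-square per degree of freedom 29.8). The edgeR fit was tested on simulated data made from the same genes.

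Samples with the same tag in their title were taken to come from the same pig, which pairs them. The authors state more pigs than there are tags, and more pigs with several brain regions. Their deviations from the group means had a mean correlation of 0.0791 over 25 pairs (-0.374 to 0.433), against -0.00499 for different pigs, and the correlation that limma 3.58.1 estimated was 0.205. Alternatives were limma-voom, DESeq2 1.42.0, RLE factors, no factors, filterByExpr, no filter, only the groups compared, an adjusted p of 0.05, pig as a replicate block, each sample left out, another prior count and Spearman's rho. Leaving out samples with brain cell markers over 200 or 500 CPM was added after seeing the data, the second limit lying in the gap between 495 and 604 CPM.

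The 3 genes and the gene lists were chosen with earlier results of these data known. Named in full were the 3 genes and every ligand and receptor with an identifier, then, per comparison, the 3 genes in each direction with the largest fold change among called genes of the signalling and transcription lists, and the 5 genes most alike to each of the 3, of which 1 is not reported here. SPI1 and the stress genes JUN and HSPB1 were named outside this rule, after their values were seen. IL3RA and 7 other listed symbols had no identifier in the count table. By their tags, replicates of a group are separate pigs, and the 24 microglia samples are from 14 pigs.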

Additional observations from a re-analysis of the deposited data

Results flagged for a closer look

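Of 12 sets of at least 4 samples searched for a value far from the others in CPM (3 genes in 4 groups), 3 held one, all of them for CSF1 in microglia, and chance alone gives about 1 in 20. In cerebellar microglia, pig 12821 held 76.1 CPM where the other 7 samples held 16.3 to 40.2 CPM. In frontal cortex microglia, pig 12599 held 21.5 CPM against 2.85 to 11.3 in the others, and in hippocampal microglia, pig 12829 held 16.6 CPM against 5.03 to 9.98. Each was the highest of its region, and on the log2 scale of the tests 0 of the 12 sets held such a value. Without the cerebellar sample of pig 12821, CSF1 was 1.62 log2 units higher in cerebellar than in frontal cortex microglia (adjusted p = 0.00293 by edgeR) and 1.79 higher than in hippocampal microglia (adjusted p = 0.00298 by edgeR). The frontal cortex sample of pig 12599 also had the highest sum of brain cell markers of the 24, at 1889 CPM.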

How the results depend on the processing

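Of 244 values of the 3 genes under settings other than leaving out a sample, 224 kept their direction and their side of the threshold, and of 354 values with 1 sample left out, 349 did. Every reversal was of a difference between regions that no fit called. The calls of the 3 genes against macrophages, of CSF1R against tissue and of all 3 between macrophages and tissue held under every setting run. With limma-voom, CSF3R against tissue was 5.51 (adjusted p = 0.026), CSF1R between cerebellum and hippocampus -0.061, CSF1 between frontal cortex and hippocampus -0.11 and the genes called between cerebellum and hippocampus 45. DESeq2 called 790 genes in the F test and 511 (cerebellum, frontal cortex), 452 (cerebellum, hippocampus) and 391 (frontal cortex, hippocampus) in the pairs, against 236, 217, 70 and 37 in edgeR, and an adjusted p of 0.05 gave 927, 586, 424 and 281. With filterByExpr 4659 genes were called against macrophages and 7083 against tissue (2597 and 3930 before). With no filter these were 5060 and 7868, with 129 between cerebellum and frontal cortex and 17 between frontal cortex and hippocampus. With only the groups compared, the F test called 144 genes and the pairs 104 (cerebellum, frontal cortex) and 4 (frontal cortex, hippocampus), and CSF1 was 1.88 higher in cerebellum than frontal cortex (adjusted p = 0.0105), a call lost.

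With the pig as a replicate block in edgeR, the F test called 85 genes, with CSF1 at 0.0102, and CSF1 was 1.86 (adjusted p = 0.0137) and 1.93 (adjusted p = 0.0825) higher in cerebellum, calls lost. CSF3R between cerebellum and hippocampus was 0.078. In that pair 0 genes were called in edgeR, with 1327 at an unadjusted p under 0.05 and 66 called by limma with the block, and 1 gene was called between frontal cortex and hippocampus. With the replicate block as a random effect in limma, CSF3R against tissue was 5.02 (adjusted p = 0.0271), CSF1R between cerebellum and hippocampus -0.041, CSF1 between frontal cortex and hippocampus -0.039, and 381 genes were called between cerebellum and frontal cortex. The block changed no other call of the 3 genes.

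Without the 5 samples over 500 CPM of brain markers, CSF1R between cerebellum and hippocampus was -0.0079, CSF1 between frontal cortex and hippocampus -0.25, and 26 genes were called between cerebellum and hippocampus. The limit at 200 CPM left arms of 1 cerebellar, 1 frontal cortex and 2 hippocampal samples, with the spread taken from the other groups and each lone sample assumed to vary like them, so that its calls say nothing about stability. There the F test called 29 genes with CSF1 at 0.124, and CSF1 was 1.98 and 1.11 higher in cerebellum. CSF1R was 0.44 (cerebellum, frontal cortex) and -0.19 (frontal cortex, hippocampus), CSF3R 0.22 (cerebellum, hippocampus) and CSF1 -0.87 (frontal cortex, hippocampus), and the pairs called 27, 11 and 22 genes.

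Leaving out 1 sample moved the genes called from 154 (cerebellum 12750) to 335 (hippocampus 12781) in the F test, from 141 (cerebellum 12758) to 241 (frontal cortex 12758) between cerebellum and frontal cortex, from 35 (hippocampus 12817) to 113 (hippocampus 12781) between cerebellum and hippocampus and from 15 (hippocampus 12817) to 107 (hippocampus 12781) between frontal cortex and hippocampus. CSF1R between cerebellum and hippocampus ran from -0.14 to 0.16 (-0.14 without cerebellum 12599, -0.02 without cerebellum 12758, -0.03 without hippocampus 12781, -0.0099 without cerebellum 12891), and CSF1 between frontal cortex and hippocampus from -0.14 (without frontal cortex 12599) to 0.42. Why the values moved was not tested. The 3 macrophage samples limit any comparison with them, and counting error is small for CSF1R but not for CSF3R in tissue, where 7 to 27 reads were counted.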
